A study of Homo sapiens with 7 samples.

Results

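CstF, CFI and CFII were followed through 9 of the 16044 genes listed in the 3 tables of polyadenylation site (PAS) counts. They were picked by symbol, as the genes for the subunits of cleavage stimulation factor (CstF) and of cleavage factors I and II (CFI and CFII), complexes that cleave the 3′ ends of pre-mRNAs together with CPSF. They are CSTF1, CSTF2, CSTF2T and CSTF3, then NUDT21, CPSF6 and CPSF7, then PCF11 and CLP1. RNA came from HEK293, a long established cell line derived from human embryonic kidney. Cells took up a control siRNA (siCtrl) or an siRNA against 1 of the nuclear poly(A) polymerases Star-PAP, PAPα or PAPγ, and in the double knockdown (KD) siRNAs against both PAPα and PAPγ. Batch 1 was made by 3′READS and held siCtrl, siStar-PAP, siPAPα and siPAPγ, while batch 2 was made by 3′READS+ and held siCtrl and siStar-PAP. The double KD library, also from 3′READS, was deposited next to the siCtrl counts of batch 1. The labels give it no batch, so KD and a possible batch difference from that siCtrl cannot be told apart. Each condition had 1 library per batch, so the 7 libraries gave a second measurement for siCtrl and siStar-PAP alone.

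CstF binds the U- or GU-rich RNA downstream of the cleavage site. CFI binds UGUA elements upstream of it and helps to choose among PASs of a gene, and CFII links cleavage to transcription termination. CSTF3 and PCF11 are textbook cases of genes with a PAS in an early intron, whose use gives a short RNA that does not encode the full protein. Reads mark the 3′ ends of RNA, 1 end per RNA, so levels of different genes can be set side by side without a correction for length. They are given as PASS reads (reads with untemplated Ts from the poly(A) tail) scaled to the library total of PASS reads, as reads per megaread (RPM). An intronic PAS is one that the authors placed in an intron, and a last-exon PAS lies in the 3′-most exon or its extension.

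The deposited sense reads ranged from 2347192 (siStar-PAP of batch 2) to 16191098 (siPAPα), which was 54.5% to 70.5% of the PASS reads of a library. TUT1, the gene for Star-PAP, had 83 reads in siCtrl and 2 in siStar-PAP of batch 1, but 6 and 4 in batch 2, too few for a check there. PAPOLA, the gene for PAPα, went from 71 to 12 reads with siPAPα and from 78 to 8 in the double KD. PAPOLG, the gene for PAPγ, had 5 reads in siCtrl, 15 in the library labelled siPAPγ and 6 in the double KD. Scaled to library totals this was 0.438 RPM (counting interval 0.142 to 1.02), 1.01 (0.567 to 1.67) and 0.319 (0.117 to 0.695). Both KD intervals overlap that of siCtrl, so these low counts neither show nor exclude a KD of PAPγ in either library. PAPOLG was at 1.69 RPM in siStar-PAP of batch 1 and 1.44 with siPAPα. The paper reports effective KDs of the polymerases from immunoblots. Where siPAPγ stands in a list of libraries it means the library so labelled. The neurofilament genes NEFL and NEFM, known markers of HEK293, had reads in every library, and PAX2 and LHX1, which also mark it, had at most 16, with none in some libraries. Of 8 markers of other cell types, PTPRC, CD3E, ALB and PECAM1 had 0 reads in all libraries, COL1A1 had 0 to 12, GFAP 0 to 9, COL3A1 0 to 5 and KRT5 0 to 4.

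In hg19 the genes of CstF lie at chr20:54967427-54981418 (CSTF1, plus strand), chrX:100075380-100096509 (CSTF2, plus), chr10:53455246-53459355 (CSTF2T, minus) and chr11:33098734-33183917 (CSTF3, minus). Those of CFI lie at chr16:56463045-56486111 (NUDT21, minus), chr12:69633349-69668138 (CPSF6, plus) and chr11:61170113-61197503 (CPSF7, minus), and those of CFII at chr11:82868030-82898493 (PCF11, plus) and chr11:57415661-57429337 (CLP1, plus). Across the tables the 9 genes had 48 sense PASs, of which 37 were in the last exon, 10 were intronic and 1 was in an upstream exon. The genomic bases (hg19) that end at the PASs on which the results turn are shown here, 30 for each, with the poly(A) signal in capitals. The intronic sites of CSTF3, PCF11 and CPSF6 stand before the last-exon sites they are compared with, the sites of CSTF1 are those with most reads in either protocol, and those of NUDT21 are 3 sites whose shares differed with siPAPα.
CSTF3 intron 3, chr11:33162977-33163006, minus strand: tgcaacaacATTAAAacagtttcaatggta
CSTF3 last exon, chr11:33106132-33106161, minus strand: agtcctttaaaaAATAAAaggattcagaaa
PCF11 intron 1, upstream site, chr11:82869849-82869878, plus strand: tctgactctAATAAAtggttttgaaatgtg
PCF11 intron 1, downstream site, chr11:82869892-82869921, plus strand: aaaatttgtgAATAAAacatataaaatatg
PCF11 last exon, distal, chr11:82896807-82896836, plus strand: atacatgtAATAAAtagaatgatgaagaaa
CPSF6 intron 9, chr12:69659061-69659090, plus strand: tgagcaaAATAAAagtagttcagtgcttta
CPSF6 last exon, chr12:69663690-69663719, plus strand: tgtagtgttgtAATAAActgtttaatgggg
CSTF1 last exon, proximal, chr20:54979076-54979105, plus strand: ggatagggcATTAAAgtgcttttgacatga
CSTF1 last exon, middle, chr20:54979282-54979311, plus strand: ttattctgatAATAAAgctcagatctgcaa
NUDT21 last exon, proximal, chr16:56466537-56466566, minus strand: acagtgtagAATAAAtgtggtagaaaagtt
NUDT21 last exon, second, chr16:56466458-56466487, minus strand: tttgaatAGTAAAattaatatgaagaacta
NUDT21 last exon, distal, chr16:56463048-56463077, minus strand: ttgtcatttcAATAAAaaatatttgaaaga

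The motif AATAAA and then ATTAAA were sought first, and after these AGTAAA, then TATAAA, then CATAAA, then GATAAA, then AATATA, then AATACA, then AATAGA, then AAAAAG and then ACTAAA, on the strand of the gene and in the 40 bases that end at the site. AATAAA was found at 33 of the 48 PASs of the 9 genes (68.8%), against 46.3% of the 51882 sense PASs of batch 1. The 48 come from the 3 tables together, and batch 1 alone lists 29 of them. All sites below means those of batch 1. Of the 10 intronic sites 8 had AATAAA, against 47.1% of all intronic sites, while the site in intron 3 of CSTF3 had ATTAAA. No signal of the list lay within the window at 4 of the 48 sites (8.33%), against 18.9% of all sites. TGTA, the DNA form of the element that CFI binds, lay 100 to 41 bases before 23 of the 48 sites (47.9%) and before 37.3% of all sites. Sites of 1 gene can share a window, so these shares are descriptions. Last-exon sites of CSTF3 at 33106127 and 33106132, and of PCF11 at 82896244 and 82896248, come from different tables and were counted apart.

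**Figure D1:**
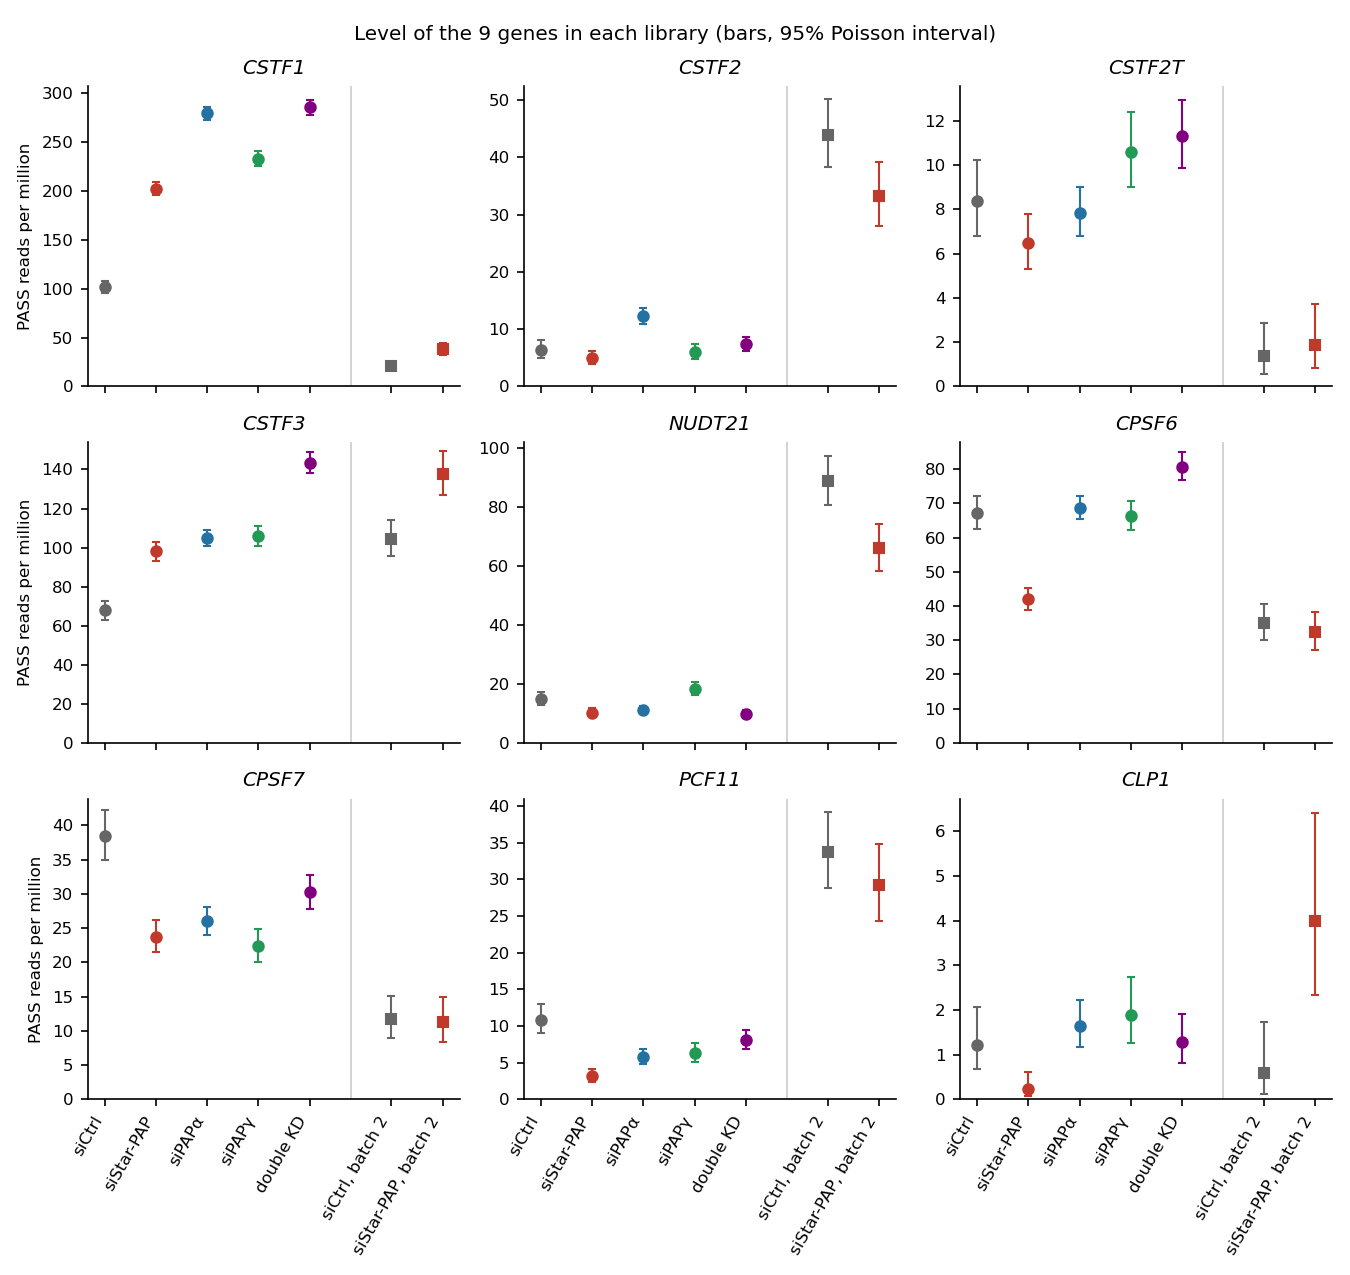
RPM of the 9 genes in the 7 libraries with exact 95% Poisson intervals, circles for 3′READS and squares, right of the grey line, for 3′READS+ libraries. CSTF1 was 102 in siCtrl of batch 1 and 202 to 286 in the KD libraries beside it, and CSTF2 and NUDT21 stood higher in the 3′READS+ libraries.

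In siCtrl of batch 1 the order by level was CSTF1 (102 RPM), CSTF3 (67.8), CPSF6 (67.1), CPSF7 (38.4), NUDT21 (15.0), PCF11 (10.9), CSTF2T (8.40), CSTF2 (6.39) and CLP1 (1.23). CSTF3 and CPSF6 could not be told apart by their counting intervals, nor could neighbours in the run from NUDT21 to CSTF2. In siCtrl of batch 2 the order was CSTF3 (105 RPM), NUDT21 (88.7), CSTF2 (44.0), CPSF6 (35.1), PCF11 (33.7), CSTF1 (20.8), CPSF7 (11.7), CSTF2T (1.39) and CLP1 (0.594). Here the counting intervals of CSTF3 and NUDT21 met, as did those of neighbours from CSTF2 to PCF11 and those of CSTF2T and CLP1. Thus CSTF1 went from the first rank to the sixth, and CSTF2 from the eighth to the third, a rank its interval does not set apart from that of CPSF6. The site with most reads also changed. It lay more than 24 nt away in batch 2 for 4 of the 7 genes with enough reads (CSTF1, CSTF3, NUDT21 and CPSF6), and for 29.6% of 7595 genes. Both siCtrl libraries are of cells with the same treatment, but protocol and batch cannot be told apart, so KD libraries were compared only with the siCtrl of their own table.

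For the 4 genes of CstF, levels against siCtrl differed in size and sign. CSTF1 encodes CstF-50, which joins CstF into dimers. It was higher in each of the 5 KD libraries than in the matching siCtrl. RPM was 102 in siCtrl of batch 1, 202 in siStar-PAP, 279 with siPAPα, 233 in the library labelled siPAPγ and 286 in the double KD. Batch 2 gave 20.8 for siCtrl and 37.9 for siStar-PAP. No KD library overlapped its control in counting interval, and siStar-PAP was the closest to it in batch 1. More cells with an RNA and more RNA per cell cannot be told apart in such bulk values. The log2 ratios were 0.99, 1.46, 1.19 and 1.49 for siStar-PAP, siPAPα, siPAPγ and the double KD and 0.87 for siStar-PAP of batch 2. Since all genes tested had a median log2 ratio below 0 in each comparison (−0.45, −0.26, −0.33, −0.38 and −0.16 in the same order), the distances of CSTF1 from that median were 1.44, 1.71, 1.52, 1.87 and 1.03. A share of 4.49% of genes stood higher than CSTF1 in siStar-PAP of batch 1, and 2.99% in the double KD.

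siStar-PAP is the condition with libraries in both batches, and there CSTF1 passed a test over libraries. The log2 change was 1.29 (SE 0.34, n = 2 per group, adjusted p = 0.0440, edgeR quasi-likelihood test with batch as block), and it was 1.51 in batch 1 and 1.05 in batch 2 on the TMM scale. Of the 8 genes tested 1 passed, against 1.23% of 11878 genes called up and 1.08% called down. CSTF3 had a log2 change of 0.82 (SE 0.33, edgeR adjusted p = 0.227), with 1.05 in batch 1 and 0.58 in batch 2. Of 12 other genes of 3′ end processing, SSU72 alone passed the same fit (log2 change 1.53, SE 0.33, edgeR adjusted p = 0.016). The other 6 of the 9 genes that were tested lay between −0.62 (PCF11) and 0.30 (CSTF2T), and CLP1 did not pass the filter on low counts. Without the block the CSTF1 call was lost (edgeR adjusted p = 1.00, log2 change 1.43), and 0 of all genes passed, with 54 at an unadjusted p below 0.05. The fit leaves 1 residual degree of freedom per gene, and the quasi-likelihood test adds a variance prior pooled over all genes. The p-values therefore rest mostly on that pooled spread and little on the spread of the gene itself. Nothing in the labels says that the libraries of a group came from separate cultures, so the spread between these libraries may be technical.

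CSTF1 reads lay at another site in the other protocol, whereas KD libraries used nearly the same sites as their siCtrl. The middle site of its 3′UTR held 1104 of 1163 reads (94.9%) in siCtrl of batch 1, 97.1% in siStar-PAP, 93.0% with siPAPα, 92.7% in the library labelled siPAPγ and 94.0% in the double KD. The same site held in batch 2 only 1 of 105 reads in siCtrl (0.952%) and 4 of 161 in siStar-PAP (2.48%), and the site 206 nt upstream held 88.6% and 90.7%. At the upstream site RPM went from 5.16 in siCtrl of batch 1 to 19.6 with siPAPα, 17.0 in the library labelled siPAPγ and 16.4 in the double KD, but to only 5.86 in siStar-PAP. In batch 2 the same site went from 18.4 to 34.4 RPM. The middle site carried the higher level of siStar-PAP in batch 1 (96.6 to 196 RPM) and the upstream site that in batch 2. Shares were also tested by chi-square on the same reads, with the statistic divided by its excess over all features. That excess variance is the median statistic relative to its expected median, and real changes can add to it. It was 4.68 to 12.3 times for the intronic share. Within the 9 genes, the calls on shares of CPSF6 in the double KD were the only ones kept.

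CSTF2 encodes CstF-64, the RNA-binding subunit, and CSTF2T, on chromosome 10 and without introns, its paralogue τCstF-64. CSTF2 RPM was 6.39 in siCtrl of batch 1, 4.95 in siStar-PAP, 12.3 with siPAPα and 5.95 in the library labelled siPAPγ. In the double KD it was 7.34 against 5.16 in siCtrl of that table, which does not list the second last-exon site. In batch 2 it was 44.0 and 33.2. The log2 ratio of the gene was 0.94 with siPAPα (95% interval 0.57 to 1.33), short of the 2-fold limit. At the proximal last-exon site, which all tables list, it was 0.67 with siPAPα (0.21 to 1.16) and 0.75 in the double KD (0.27 to 1.24), and these intervals overlap. Of the KD libraries siPAPα also had the highest share of reads at the distal last-exon site, 2616 nt further down (43.2% against 31.5% in siCtrl), a difference that did not pass (Fisher's exact test, adjusted p = 0.144). CSTF2T RPM was 8.40, 6.47, 7.85 and 10.6 in siCtrl, siStar-PAP, siPAPα and siPAPγ of batch 1 and 11.3 in the double KD, with 1.39 and 1.88 in batch 2 from 7 and 8 reads.

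Within CSTF2T, the share of reads at the most upstream PAS was lower than in siCtrl in all KD libraries of 3′READS. RPM there was 4.64 in siCtrl, 1.45 in siStar-PAP, 1.83 with siPAPα, 3.18 in the library labelled siPAPγ and 3.14 in the double KD. In the library labelled siPAPγ and the double KD its log2 ratios were −0.55 and −0.56, with counting intervals that reached 0. A loss of reads from that PAS is therefore not shown in these libraries. That PAS held 53 of 96 reads (55.2%) in siCtrl, 22.4% in siStar-PAP, 23.4% with siPAPα, 29.9% in the library labelled siPAPγ and 27.7% in the double KD. The adjusted p of Fisher's exact test was 1.9e-05 in siStar-PAP, 1.1e-06 with siPAPα, 0.00095 in the library labelled siPAPγ and 5.1e-05 in the double KD. The most distal PAS held 14.6% in siCtrl, 47.7% in siStar-PAP (adjusted p = 6.0e-06), 28.4% with siPAPα (adjusted p = 0.025), 20.4% in the library labelled siPAPγ (adjusted p = 0.462) and 32.9% in the double KD (adjusted p = 0.0038). The PAS 183 nt from the first held 26.0% in siCtrl, 16.8% in siStar-PAP (adjusted p = 0.203), 41.1% with siPAPα (adjusted p = 0.035), 40.8% in the library labelled siPAPγ (adjusted p = 0.065) and 29.1% in the double KD (adjusted p = 0.771), all by Fisher's exact test. Whether these shares differed between KD libraries was not tested. With 7 and 8 reads the gene was not tested in batch 2.

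**Figure D2:**
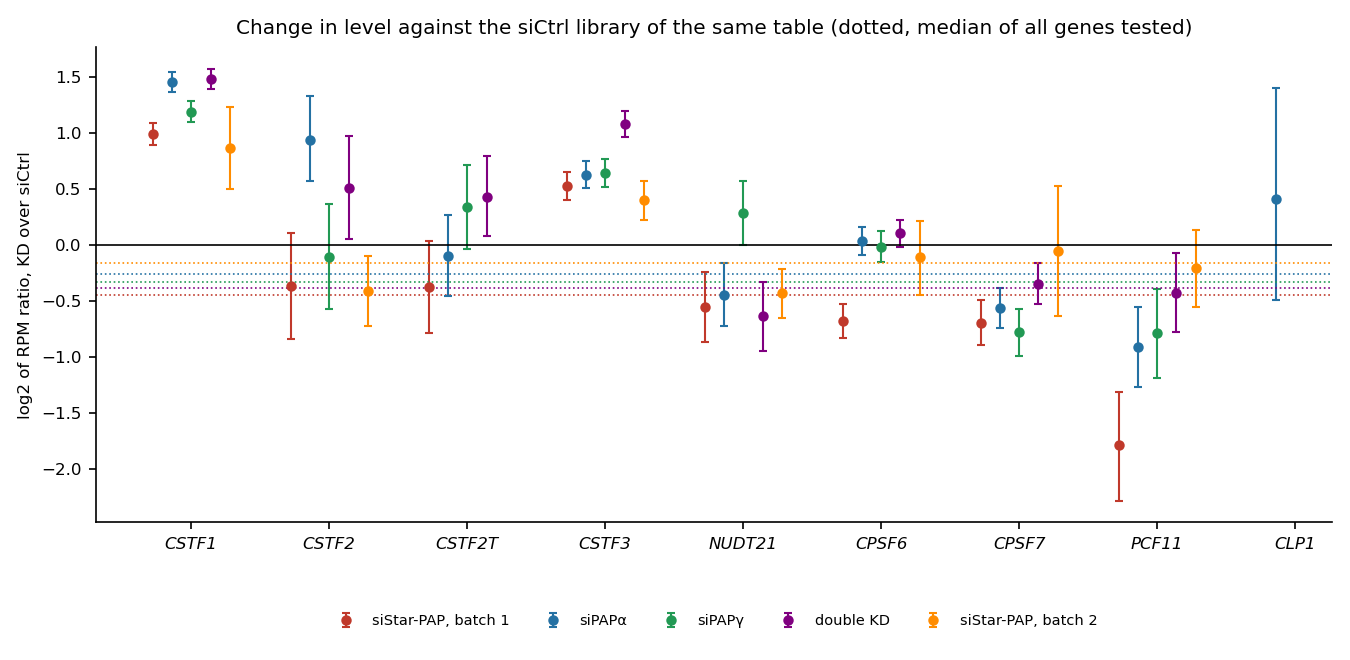
log2 ratio of RPM of a KD library over the siCtrl library of its table, for each gene with more than 50 reads in the 2 libraries together, with exact 95% intervals that cover counting error only and, dotted, the medians of all genes tested. CSTF1 and CSTF3 lay above 0 in all 5 comparisons, and PCF11 was lowest in siStar-PAP of batch 1 (−1.79).

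CSTF3 encodes CstF-77, the scaffold of CstF. Its RPM was 67.8 in siCtrl of batch 1, 98.0 in siStar-PAP, 105 with siPAPα, 106 in the library labelled siPAPγ and 143 in the double KD. Batch 2 gave 105 for siCtrl and 138 for siStar-PAP. Each KD library was above its siCtrl, and the double KD was the highest, with a log2 ratio of 1.08 (95% interval 0.96 to 1.20) against 0.53, 0.63 and 0.64 in the single KDs.

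**Figure D3:**
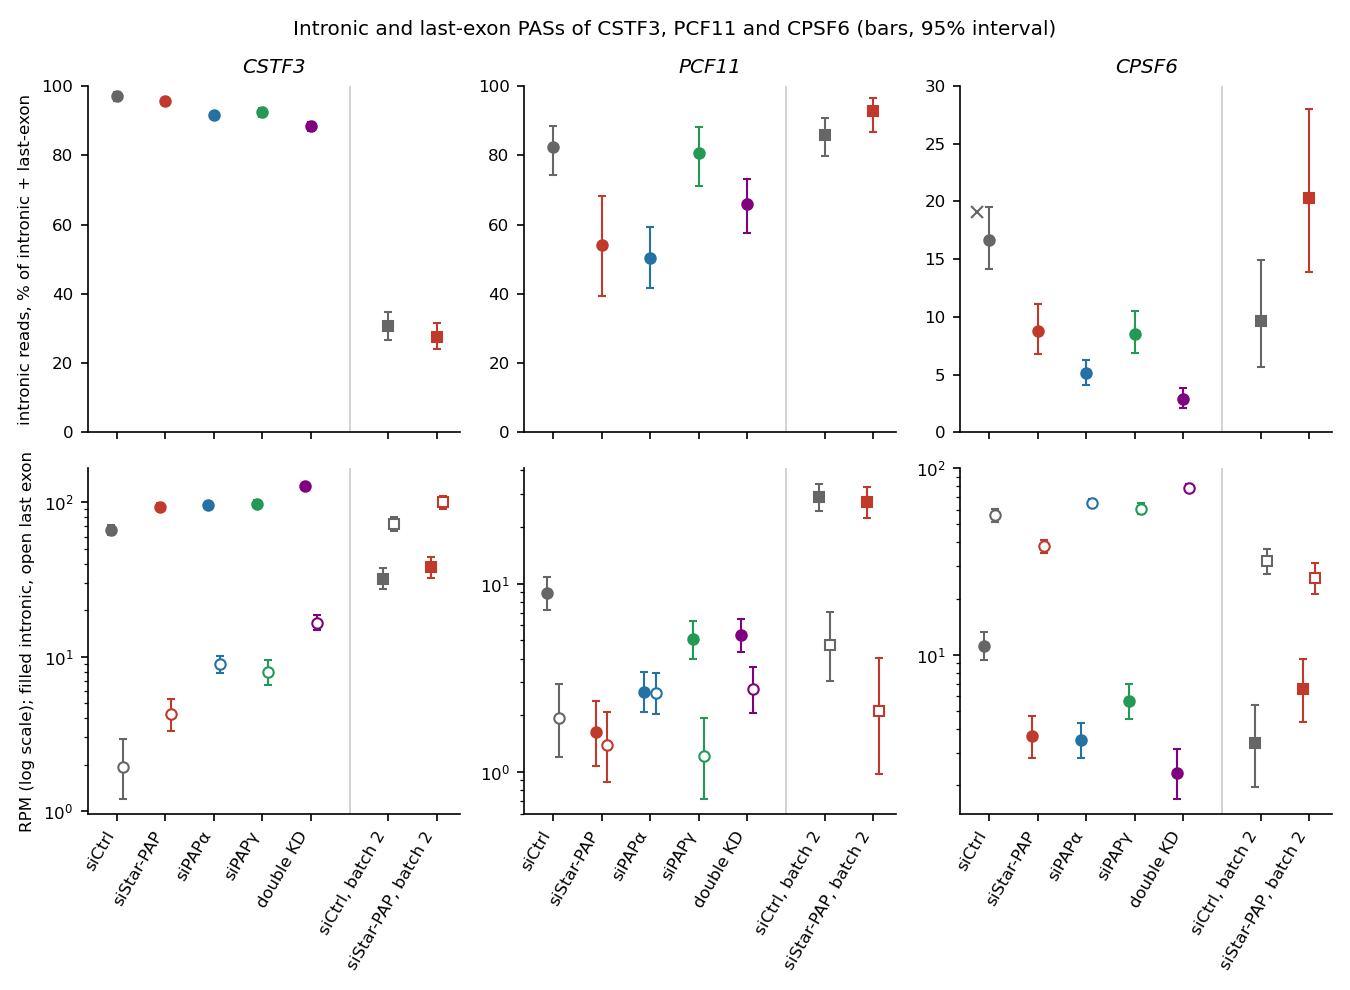
Upper row, intronic reads as a percentage of intronic and last-exon reads of CSTF3, PCF11 and CPSF6, with exact 95% intervals and a cross for CPSF6 in siCtrl as listed in the double KD table (19.1%), and lower row, RPM at intronic (filled) and last-exon (open) PASs on a log axis. The CSTF3 share was 97.2% in siCtrl of 3′READS and 88.4% in the double KD, and was 30.7% and 27.6% in 3′READS+.

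Nearly all 3′READS ends of CSTF3 were at its intronic PAS, in intron 3 and 56845 nt before the last-exon PAS. Intronic reads were 753 of 775 in siCtrl (97.2%), 1552 of 1622 in siStar-PAP (95.7%), 2411 of 2635 with siPAPα (91.5%), 1450 of 1567 in the library labelled siPAPγ (92.5%) and 2381 of 2694 in the double KD (88.4%). The share was lower with siPAPα (Fisher's exact test, adjusted p = 8.6e-08), siPAPγ (adjusted p = 4.6e-05) and the double KD (adjusted p = 2.1e-14), and did not pass in siStar-PAP (adjusted p = 0.148). Last-exon RPM was 1.93 in siCtrl, 4.23 in siStar-PAP, 8.93 with siPAPα, 7.91 in the library labelled siPAPγ and 16.7 in the double KD. That is 4.64-fold of siCtrl with siPAPα, 4.11-fold in the library labelled siPAPγ and 8.65-fold in the double KD, where intronic RPM was 1.46-fold, 1.49-fold and 1.92-fold. The siCtrl level of the last-exon end rests on 22 reads.

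In batch 2 the balance of CSTF3 was the other way round. Intronic reads were 162 of 528 in siCtrl (30.7%) and 162 of 586 in siStar-PAP (27.6%), a difference that did not pass (Fisher's exact test, adjusted p = 0.520). Last-exon RPM was 72.5 in siCtrl and 99.8 in siStar-PAP, and intronic RPM 32.1 and 38.1. So the siCtrl libraries of the batches differed from each other by more than any KD library from its siCtrl. Over all genes the intronic share was 4.60% in siCtrl of batch 1 and 4.44% in siCtrl of batch 2, so that the gap in CSTF3 was not one of all intronic reads.

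The CFI genes showed no call on level, but changes of sites. NUDT21 encodes CFI-25, the subunit that binds UGUA. RPM was 15.0 in siCtrl of batch 1, 10.2 in siStar-PAP, 11.0 with siPAPα, 18.2 in the library labelled siPAPγ and 9.63 in the double KD, and 88.7 and 65.9 in batch 2. The log2 ratios relative to the median of all genes were −0.11, −0.19, 0.62, −0.25 and −0.27 in the order siStar-PAP, siPAPα, siPAPγ, double KD and siStar-PAP of batch 2, so that all but the library labelled siPAPγ lay within 0.27 of the median gene. The proximal PAS held 96 of 171 reads in siCtrl (56.1%), 50.9% in siStar-PAP, 27.5% with siPAPα, 46.7% in the library labelled siPAPγ and 40.3% in the double KD. It was lower with siPAPα (Fisher's exact test, adjusted p = 3.5e-08) and in the double KD (adjusted p = 0.014). The second PAS, 79 nt further down, took the larger part of the gain with siPAPα. It held 25.7% in siCtrl, 44.2% with siPAPα (adjusted p = 0.00047) and 38.7% in the double KD (adjusted p = 0.034), against 18.9% in siStar-PAP and 31.9% in the library labelled siPAPγ, which did not pass. In siStar-PAP it was the PAS at 56466360 that was higher, at 26.0% against 9.94% in siCtrl (adjusted p = 0.00077).

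The most distal PAS of NUDT21, at the annotated end of the gene, had most of its reads in the libraries with PAPα knocked down. It had 1 read in siCtrl, 1 in siStar-PAP, 35 with siPAPα (12.7% of the gene), 10 in the library labelled siPAPγ (3.70%) and 25 in the double KD (13.8%), and 1 and 2 reads in batch 2. The adjusted p of Fisher's exact test was 3.7e-06 with siPAPα and 4.6e-06 in the double KD. A PAS 949 nt below the proximal one had 264 of 448 reads in siCtrl of batch 2 (58.9%), 0 reads in siCtrl of 3′READS and 2 in the double KD. In siCtrl of 3′READS a count of 0 allows up to 0.263 RPM, against 52.3 RPM in siCtrl of batch 2.

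**Figure D4:**
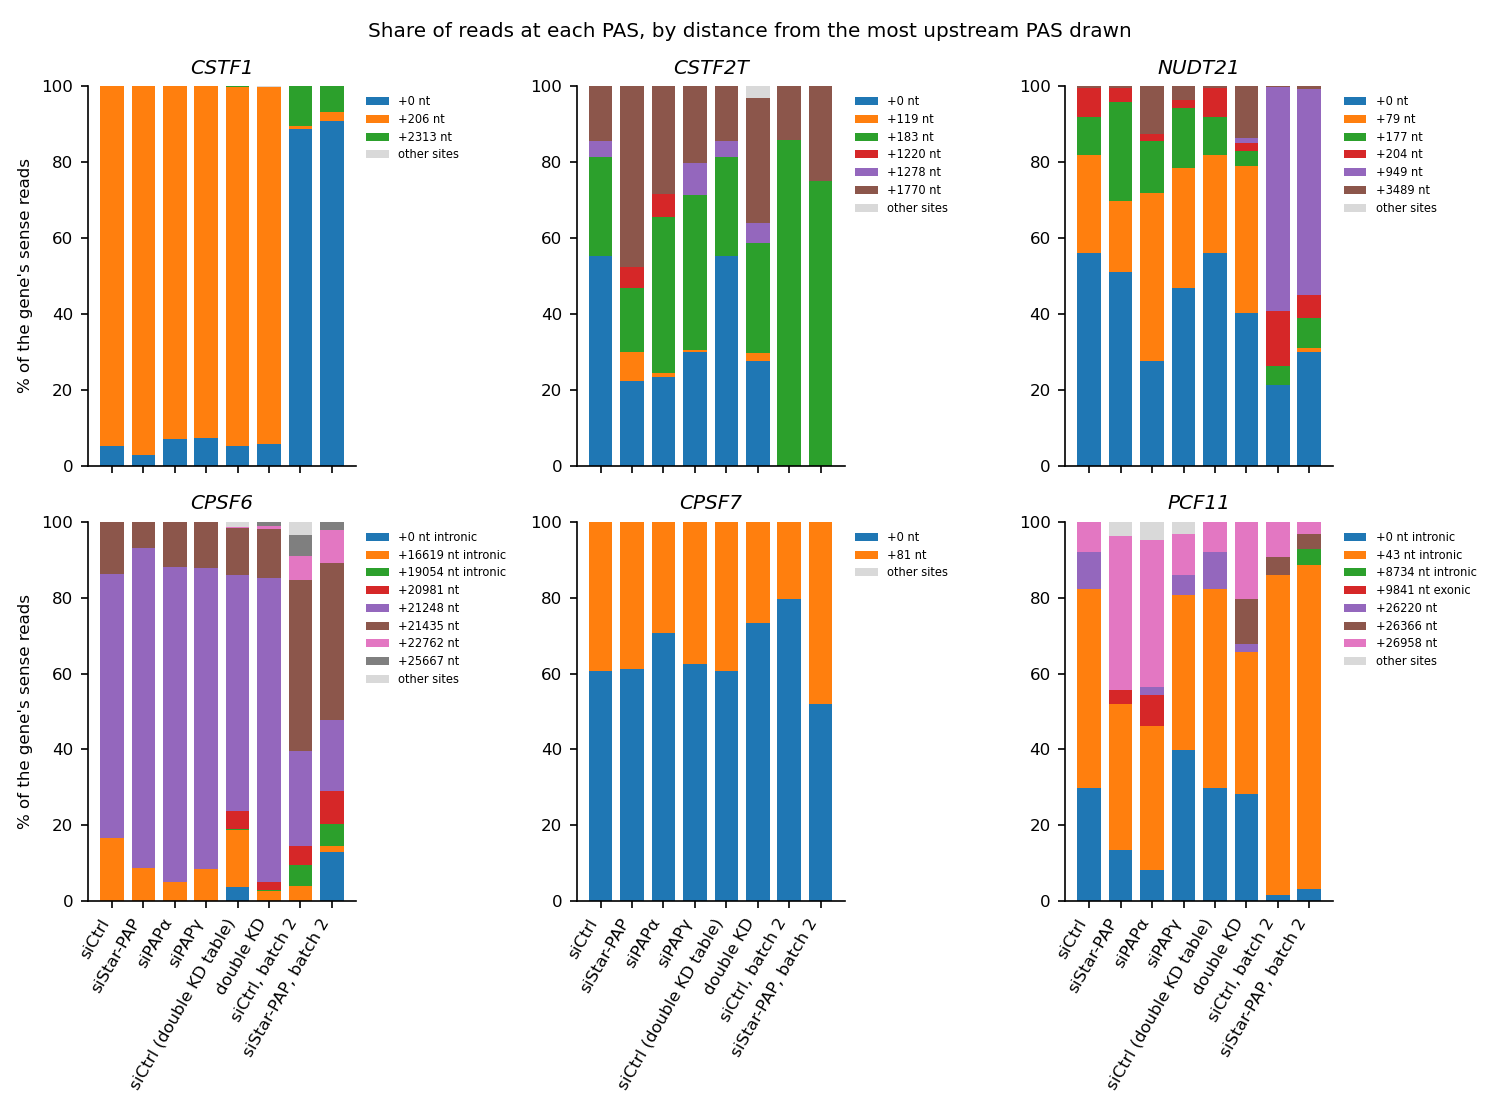
Share of the sense reads of 6 genes at each PAS with at least 5% in any library and each intronic PAS of PCF11, named by distance in nt from the most upstream PAS drawn, with all other sites in grey. The 3′READS+ libraries, last in each panel, use other sites than 3′READS in CSTF1 and NUDT21, and PCF11 in siStar-PAP and siPAPα of batch 1 shows a larger share at its most distal site.

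CPSF6 encodes CFI-68 and CPSF7 CFI-59, the partners of CFI-25 that contact the rest of the machinery. CPSF6 RPM was 67.1 in siCtrl of batch 1, 41.9 in siStar-PAP, 68.7 with siPAPα and 66.4 in the library labelled siPAPγ. In the table of the double KD it was 75.1 in siCtrl and 80.8 in the KD, and in batch 2 it was 35.1 and 32.5. Only siStar-PAP of batch 1 was clearly below its siCtrl, at a log2 ratio of −0.68 (95% interval −0.83 to −0.53), which is 0.23 under the median of all genes. The siCtrl level differs between the tables, as the double KD table lists 10 PASs of the gene and that of batch 1 lists 3.

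The intronic share of CPSF6 was below siCtrl in the 4 KD libraries of 3′READS and above it in that of 3′READS+. Intronic reads, all in intron 9 in the table of batch 1, were 128 of 767 in siCtrl (16.7%), 61 of 694 in siStar-PAP (8.79%), 88 of 1724 with siPAPα (5.10%) and 84 of 982 in the library labelled siPAPγ (8.55%). In the double KD table they were 164 of 858 in siCtrl (19.1%) and 44 of 1518 in the KD (2.90%). The adjusted p of Fisher's exact test was 5.0e-05, 7.9e-18, 4.4e-06 and 1.4e-37 in the order siStar-PAP, siPAPα, siPAPγ and double KD. Intronic RPM went from 11.2 to 3.51 with siPAPα while last-exon RPM was 55.9 and 65.2, so it was the intronic end that was lower.

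In batch 2 the intronic share of CPSF6 was 17 of 177 reads in siCtrl (9.60%) and 28 of 138 in siStar-PAP (20.3%), and did not pass (Fisher's exact test, adjusted p = 0.061). A PAS in intron 1 accounted for it, with 0 reads in siCtrl and 18 in siStar-PAP, and the site in intron 9 had 7 and 2. The intron 1 site had 33 reads in siCtrl and 1 in the double KD in the table of the latter and is not in that of batch 1. Within the last exon, the distal of the leading pair of sites held 16.6% of the reads of the pair in siCtrl of 3′READS, 7.74% in siStar-PAP (Fisher's exact test, adjusted p = 1.0e-05), 12.5% with siPAPα (adjusted p = 0.031), 13.3% in the library labelled siPAPγ (adjusted p = 0.160) and 13.8% in the double KD (adjusted p = 0.170). Batch 2 gave 64.5% for siCtrl and 68.7% for siStar-PAP (adjusted p = 0.797).

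CPSF7 had 2 PASs, 81 nt apart, and none in an intron. RPM was 38.4 in siCtrl of batch 1, 23.7 in siStar-PAP, 26.0 with siPAPα, 22.4 in the library labelled siPAPγ and 30.2 in the double KD, and 11.7 and 11.3 in batch 2. Relative to the median of all genes the log2 ratios were −0.25, −0.30, −0.45, 0.04 and 0.11, so its position among genes was lower in the single KDs of 3′READS and not in the other pairs. The distal PAS took 39.4% of reads in siCtrl, 38.9% in siStar-PAP, 29.2% with siPAPα, 37.5% in the library labelled siPAPγ and 26.6% in the double KD. It was lower with siPAPα (Fisher's exact test, adjusted p = 0.0017) and the double KD (adjusted p = 8.0e-05) and higher in siStar-PAP of batch 2, where it went from 12 of 59 to 23 of 48 reads (20.3% to 47.9%, adjusted p = 0.036).

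Of the CFII genes, PCF11 was lower in all 5 KD libraries than in siCtrl, and most so in siStar-PAP of batch 1, with an interval that took in 0 in batch 2. PCF11 binds the C-terminal domain of RNA polymerase II and acts in termination. RPM was 10.9 in siCtrl of batch 1, 3.14 in siStar-PAP, 5.78 with siPAPα, 6.29 in the library labelled siPAPγ and 8.09 in the double KD, and 33.7 and 29.2 in batch 2. The log2 ratio in siStar-PAP of batch 1 was −1.79 (95% interval −2.28 to −1.31), or −1.34 relative to the median, from 52 and 124 reads. With siPAPα and in the library labelled siPAPγ the ratio was −0.65 and −0.46 relative to the median, and in the double KD and in siStar-PAP of batch 2 it was −0.04 in each, so in these last pairs PCF11 moved as the median gene did.

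At the intronic PASs of PCF11 the log2 ratios were −2.45, −1.74, −0.82 and −0.75 in the order siStar-PAP, siPAPα, siPAPγ and double KD, and at the last-exon PASs −0.47, 0.45, −0.66 and 0.52. In the library labelled siPAPγ the values at both ends were close to each other. The intronic sites lie 43 nt apart in intron 1, within the first part of the gene. In siCtrl of 3′READS they had 102 reads, against 22 in the last exon (82.3%). The numbers were 27 and 23 in siStar-PAP (54.0%), 67 and 66 with siPAPα (50.4%), 75 and 18 in the library labelled siPAPγ (80.6%) and 100 and 52 in the double KD (65.8%). The share was lower in siStar-PAP (Fisher's exact test, adjusted p = 0.0010), siPAPα (adjusted p = 5.2e-07) and the double KD (adjusted p = 0.0086), and did not pass in the library labelled siPAPγ (adjusted p = 0.936). Intronic RPM was 8.93 in siCtrl, 1.63 in siStar-PAP, 2.67 with siPAPα, 5.07 in the library labelled siPAPγ and 5.32 in the double KD. Last-exon RPM was 1.93, 1.39, 2.63, 1.22 and 2.77 in the same libraries, and the intervals of its log2 ratios took in 0 in every 3′READS comparison.

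In batch 2 the PCF11 share was 146 of 170 in siCtrl (85.9%) and 115 of 124 in siStar-PAP (92.7%), higher in the KD and not past the test (Fisher's exact test, adjusted p = 0.260). A site that the authors list as intronic and that lies in exon 7 of the annotated main transcript had 0 and 5 of these reads. Within the last exon of PCF11 the distal site, 738 nt below the proximal one, had 10 of the 22 reads at the pair in siCtrl of batch 1. In siStar-PAP it had 21 of 21 and with siPAPα 56 of 59 (Fisher's exact test, adjusted p = 0.00032 and 1.4e-05). In batch 2 the distal site had 16 of 170 reads of the gene in siCtrl (9.41%, 3.17 RPM) and 4 of 124 in siStar-PAP (3.23%, 0.941 RPM), a difference of the other sign that did not pass (adjusted p = 0.247).

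CLP1, an RNA kinase that also acts in tRNA splicing, was near the limit of detection. It had 14 reads in siCtrl of batch 1, 4 in siStar-PAP, 41 with siPAPα, 28 in the library labelled siPAPγ and 24 in the double KD. Batch 2 held 3 reads in siCtrl and 17 in siStar-PAP. RPM ran from 0.242 to 4.0, and the siStar-PAP libraries held both ends of that range. In siPAPα, the only comparison with more than 50 reads in the pair of libraries together, the log2 ratio was 0.42 (95% interval −0.49 to 1.41).

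Set beside all genes, few of the 9 passed the 2-fold limit. In siStar-PAP of batch 1, 0 of 8 tested were up, against 4.44% of 10079 genes, and 1 was down (PCF11), against 26.2%. In siPAPα 1 of 9 was up (CSTF1), against 8.5% of genes, and 0 down, against 22.1%. In the library labelled siPAPγ 1 of 8 was up (CSTF1), against 5.67%, and 0 down, against 20.7%. In the double KD 2 of 8 were up (CSTF1 and CSTF3), against 6.98%, and 0 down, against 26.5%. In siStar-PAP of batch 2 none of 7 passed, against 3.55% up and 11.7% down. Measured from the median of all genes, 1 gene was up and 1 down in siStar-PAP of batch 1 (10.9% and 13.4% of all genes), 2 were up with siPAPα (CSTF1 and CSTF2, 13.1%, with 15.4% of genes down), 1 was up in the library labelled siPAPγ (10.2%, with 12.1% down), 2 were up in the double KD (13.6%, with 16.1% down) and 1 was up in siStar-PAP of batch 2 (CSTF1, 5.72%, with 8.62% down). The median log2 ratios of the genes tested were −0.46, 0.03, 0.14, 0.27 and −0.11, and those of all genes −0.45, −0.26, −0.33, −0.38 and −0.16. These ratios compare 1 library with 1 library, and the 4 KD libraries of 3′READS share 1 siCtrl, while the batch of the double KD library is not given.

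For the intronic share, 2 of 3 genes tested were called lower in siStar-PAP of batch 1, where 20.5% of 3295 genes were lower and 26.7% higher. The numbers were 3 of 3 with siPAPα (36.6% of 3499 genes lower, 12.8% higher), 2 of 3 in the library labelled siPAPγ (22.6% of 3314 lower, 11.8% higher) and 4 of 4 in the double KD (32.2% of 3764 lower, 12% higher). The fourth gene was CSTF2, where 3 intronic sites with 3 reads each in siCtrl had 0 in the KD. No gene of the 3 tested passed in batch 2, where 5.48% of 2172 genes were called lower and 7.92% higher. The median difference of the genes tested was −7.90, −11.6, −4.63 and −15.7 percentage points in the 3′READS comparisons and that of all genes 1.11, −4.04, −2.60 and −2.88.

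For the pair of last-exon PASs with most reads, 3 of 7 genes were called in siStar-PAP of batch 1 (44% of 5570 genes), 6 of 7 with siPAPα (48.9%), 2 of 6 in the library labelled siPAPγ (37.3%), 3 of 5 in the double KD (49.7%) and 1 of 4 in batch 2 (11.7%). For single PASs, 11 of 28 were called in siStar-PAP of batch 1 (40.6% of all PASs), 23 of 28 with siPAPα (42.3%), 8 of 26 in the library labelled siPAPγ (29.4%), 21 of 39 in the double KD (39.1%) and 4 of 27 in batch 2 (8.61%). Fisher's exact test takes reads as independent and compares libraries, not conditions. In the chi-square test scaled by the excess variance, the lower intronic share of CPSF6 in the double KD was the only intronic call left (adjusted p = 0.0065). Of all genes, that test called 0.668%, 1.26%, 1.09%, 0.877% and 0.368% in the 5 comparisons in the order above. The last-exon pairs then had 0 calls, against 1.4%, 3.81%, 2.78%, 2.86% and 0.325% of genes. Single PASs had 1, in the double KD, against 0.607%, 2.06%, 1.2%, 1.56% and 0.223% of PASs. The fit of PAS use over both siStar-PAP batches (edgeR) called 0 of 15 PASs of these genes and 0 of 9136 in all, with 0 and 277 at an unadjusted p below 0.05. On simulated data this fit recovered only 27 of 200 4-fold changes, so the lack of calls does not show that PAS use was unchanged.

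Of 12 other genes of 3′ end processing (subunits of CPSF, symplekin and associated factors), 3 of 11 tested were down and 0 up in siStar-PAP of batch 1, 2 of 11 down and 0 up with siPAPα, 3 of 11 down and 1 up in the library labelled siPAPγ, 3 of 10 down and 1 up in the double KD, and 1 of 10 down and 1 up in siStar-PAP of batch 2. Of all genes, 26.2%, 22.1%, 20.7%, 26.5% and 11.7% were down in the same order. The shares up were 4.44%, 8.5%, 5.67%, 6.98% and 3.55%. The scaffold gene SYMPK had a log2 ratio of −1.86 in siStar-PAP of batch 1 and −2.82 with siPAPα. CPSF3, the endonuclease, had −1.46 and −1.80. CPSF1 had −1.26 in siStar-PAP of batch 1 and 0.58 with siPAPα. In siStar-PAP of batch 2 these ratios were −0.04 for SYMPK, −0.29 for CPSF3 and −0.05 for CPSF1. SSU72, a phosphatase of the polymerase tail, had 0.88 in siStar-PAP of batch 1 and 1.49 in batch 2, and PPP1CA had −0.93 with siPAPα. PPP1CB, for another catalytic subunit of the same phosphatase, had 0.91 with siPAPα.

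Among 3759 genes outside the list with at least 50 reads in each library, those whose 5 log2 ratios lay nearest to the median ratios of the 9 were NUP133, COQ5 and ABL2, at Euclidean distances of 0.14, 0.18 and 0.22. The log2 ratios of NUP133 were −0.53, −0.00, 0.08, 0.36 and −0.08 for siStar-PAP, siPAPα, siPAPγ, double KD and siStar-PAP of batch 2. The 9 were themselves less alike than that, since with siPAPα they ran from −0.91 (PCF11) to 1.46 (CSTF1).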

How the data were processed

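3′READS (batch 1 and double KD) and 3′READS+ (batch 2) libraries of HEK293 were used. Alignment to hg19 was done by the authors with Bowtie2 (local mode). Unique alignments that ended in untemplated Ts were kept, PASs within 24 nt were clustered and rare PASs were removed. The authors deposited the raw count for every PAS, without normalization. Counts were divided by the PASS read totals the study lists per library. Antisense rows (2 sites of these genes) were left out, and 0 columns had no sample.

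The genes, lists and tests were chosen with earlier results of these data known. The 9 genes were always named, as were TUT1, PAPOLA, PAPOLG, up to 4 other 3′ end processing genes per comparison by absolute log2 ratio and the 3 genes most like the list. All sites with at least 5% of a gene's reads were eligible to be named, with every intronic PAS of CSTF3 and PCF11.

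Genes with more than 50 reads in 2 libraries together were called above a 2-fold change. Shares were tested with two-sided Fisher's exact tests (at least 20 reads in each library) and Benjamini-Hochberg adjustment over all features at 0.05. Intervals are exact at 95% and, like the limit of 3 reads for a count of 0, cover counting error only. siStar-PAP over both batches was fitted with edgeR 4.0.16 (TMM, quasi-likelihood test, diffSpliceDGE for PASs) in R 4.3.3, with DESeq2 1.42.0 as an alternative. The labels name the batch, so batch was the block. Deviations of libraries of a batch from their group means correlated at r = 0.871 over 11878 genes, a value that 2 libraries per group make equal for both batches.

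Sites were annotated with the GENCODE annotation lifted to GRCh37 and read from GRCh37. On simulated data with 200 4-fold changes for siStar-PAP over both batches, the gene fit recovered 116 with 7 false calls among 10822 genes, and the PAS fit 27 with 1 among 8487 PASs. The PAS counts were simulated without the difference between batches that the real data have. Alternatives covered scaling, fold change, read filters, excess variance, the 5% limit on PASs, the block, tools and site matching. Python 3.11.15 with scipy 1.17.1 and matplotlib 3.10.9 was used.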

Additional observations from a re-analysis of the deposited data

Results flagged for a closer look

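Values that moved in opposite directions in siStar-PAP of batch 1 and of batch 2, with 1 KD library and 1 siCtrl library in each, were singled out. The difference between the batches was not tested, and protocol and batch cannot be told apart. The intronic share of PCF11 was 28.3 percentage points lower in the KD of batch 1 (a difference of −28.3) and 6.86 higher in that of batch 2. The intronic share of CPSF6 differed by −7.90 points in batch 1 and by 10.7 in batch 2, where the PAS in intron 1 with 18 reads in siStar-PAP and 0 in siCtrl made up the rise. The share of the distal site in the last-exon pair of CPSF6 differed by −8.85 points in batch 1 and 4.16 in batch 2, and that of CPSF7 by −0.48 and 27.6. With groups of at most 2 libraries, no library could be tested as standing apart from its group.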

How the results depend on the processing

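Genes above 2-fold higher were 0, 1, 1, 2 and 0 in siStar-PAP of batch 1, siPAPα, siPAPγ, the double KD and siStar-PAP of batch 2. With table totals as depth they were 1 and 2 in the first pair of these, with TMM factors 2, 2 and 2 in the first 3 and 1 in batch 2, with DESeq2 size factors 2 and 2 in the first pair and 1 in batch 2, at 1.5-fold 1, 3, 2 and 1 in all but the double KD, and with no minimum of reads 1 in batch 2. Genes lower were 1, 0, 0, 0 and 0, at 1.5-fold 3, 1, 2 and 1 in the first 4, and with no minimum 2 in siStar-PAP of batch 1. Adding 1 read to each count changed none of these counts. Of all genes at 1.5-fold, 1027 of 10079 were higher and 4358 lower in siStar-PAP of batch 1. In siPAPα these were 1863 and 3945 of 10808, and in siPAPγ 1240 and 3834 of 10163. The double KD had 1434 and 4164 of 10022, and siStar-PAP of batch 2 810 and 1873 of 7127. With no minimum, 1046 of 12476 were higher in batch 2, and 3947 of 13159 were lower in siStar-PAP of batch 1. TMM moved the median of all genes from −0.45 to 0.03 in siStar-PAP of batch 1, and the share of calls that were higher from 14.5% to 47.5%, and that share from 27.8% to 52.0%, 21.5% to 50.7%, 20.9% to 49.6% and 23.3% to 42.0% in the other 4 comparisons. Under TMM 9 of the 40 ratios of these genes had the other sign, under DESeq2 size factors 9 and under table totals 3. CSTF1 and CSTF3 stayed above 0 under each of these scalings. A scaling shifts all ratios of a comparison alike, so the distance of a gene from the median cannot change with it.

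The pairing by batch decided the edgeR call. Without the replicate block 0 of these genes passed in place of 1, and 0 genes in all in place of 146 up and 128 down. With no filter on low counts 212 were up and 232 down of 15484 genes. With RLE factors, no filter and DESeq2 it was 1 (CSTF1, adjusted p from 0.00834 to 0.0415). Leaving out a batch leaves a log2 ratio with no test, which was 1.05 to 1.51 for CSTF1, 0.58 to 1.05 for CSTF3 and −1.27 to −0.02 for PCF11; CSTF2, CPSF6 and CPSF7, none of them called, differed in sign between the batches.

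With a change of at least 10 percentage points, called single PASs were 5, 13, 1 and 13 in the 3′READS comparisons, intronic shares 1 in siStar-PAP of batch 1 and 0 in siPAPγ, and last-exon pairs 1 and 1 in these. With the excess variance, calls were 0 in each test and comparison except 1 PAS and 1 intronic share in the double KD, both of CPSF6. With PASs above 5% of the gene 1 intronic share was called in batch 2, and no other count moved by more than 1.5 times. For the limits of 10 points and of 5%, the share of all features called was not computed, so these counts have no background. PAS use over both batches had 0 calls in these genes with and without the block and with PASs matched at the same position, where 3 of 7578 PASs in all were called. Depth limits CLP1, CSTF2T of batch 2 and the last-exon reads of CSTF3 and PCF11.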
